A study of Homo sapiens with 14 samples.

Results

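The oxidative phosphorylation subunits were taken as every gene whose symbol opens with NDUFA, NDUFB, NDUFC, NDUFS, NDUFV, UQCR, ATP5, COX4, COX5, COX6, COX7 or COX8, with SDHA, SDHB, SDHC, SDHD and CYC1 added and the NDUFAF assembly factors left out. This rule found 83 of the 19775 genes named on the arrays, and 74 of the 83 passed the filter on low values, as did 9301 genes in all. The rule uses names and no measured value. It also takes in 5 genes that make no subunit, the pseudogenes ATP5MC2P1 and COX6A1P1 and the non-coding NDUFB2-AS1, NDUFV1-DT and NDUFV2-AS1. The other 78, called subunits here, include the supercomplex factor COX7A2L and the ATP synthase inhibitor ATP5IF1, and 71 of them were tested.

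Gene expression was measured on 14 Affymetrix arrays in MM1S, a human multiple myeloma line in long-term culture whose growth glucocorticoids inhibit. There were 7 groups of 2 biological replicates each. Cells were left untreated or given, for 6 h, 1 nM salmeterol, 12.5 nM CGS-21680, a low dose of dexamethasone (25 nM), a high dose (2 µM), the low dose with salmeterol, or the low dose with CGS-21680. Salmeterol activates the beta-2 adrenergic receptor, CGS-21680 activates an adenosine receptor, both receptors raise cyclic AMP, and dexamethasone is a synthetic glucocorticoid used against myeloma. All groups were of the same line in RPMI-1640 with fetal bovine serum, and no vehicle is named for the untreated cells. All results are from this single line.

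Oxidative phosphorylation makes most ATP of a respiring cell in the inner membrane of the mitochondrion. Complexes I and II take electrons from NADH and succinate, coenzyme Q carries them to complex III, cytochrome c carries them on to complex IV, and oxygen is the last acceptor. Complexes I, III and IV pump protons as the electrons pass, and complex V, the ATP synthase, uses the proton gradient to make ATP. Most subunits are encoded in the nucleus, made in the cytosol and imported, while a core set of complexes I, III, IV and V is encoded in mitochondrial DNA. Plasma cells, the normal counterpart of myeloma cells, secrete large amounts of antibody and need ATP and a working folding machinery for it.

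The values are log2 intensities, and a gene was called when limma's moderated test gave a Benjamini-Hochberg adjusted p under 0.05 over the 9301 genes. With 2 arrays a group, the p-values measure only the spread between these samples, which may be technical, and an exact permutation test of 2 against 2 arrays cannot go below p = 0.333. Replicate arrays correlated at 0.9868 to 0.9919 over the genes tested. Plasma cell markers were present throughout, with JCHAIN, the joining chain of secreted antibody, at 14.69 to 15.46, while 3 of 3 T cell markers and 3 of 3 myeloid markers lay at 2.286 to 3.081, near the lowest value of 2.286. Of 3 stromal markers, COL3A1 and LUM lay at 2.286 to 2.527 and COL1A1 at 7.067 to 7.432. The glucocorticoid-induced FKBP5, TSC22D3 and DDIT4 and the cyclic AMP responsive PDE4B, CREM and RGS2 all rose in cells given salmeterol with low dexamethasone. That group had both drugs, so the rises do not show which drug acted. No such check is given here for either agonist alone. As the arrays measured RNA from whole cultures, fewer cells of a kind and less RNA per cell cannot be told apart.

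The 71 subunits tested had array means of 8.848 (NDUFA8) to 14 (ATP5MC3), far above the lowest value. Of the 9 genes that did not pass the filter, 6 are isoforms of complex IV subunits known from single tissues or conditions (COX4I2, COX6A2, COX6B2, COX7A1, COX7B2 and COX8C), and all 6 stayed at 2.286 to 3.426. Their widespread partners COX4I1, COX6A1, COX6B1, COX7A2, COX7B and COX8A were all detected. ATP5MF, a small membrane subunit of ATP synthase, lay at 2.286 to 2.546 on the only probe set that names it alone, and a further probe set shared with other symbols was not used. NDUFS5, NDUFS8, NDUFC2 and UQCRH were on shared probe sets alone, and SDHB, UQCRFS1, NDUFA4 and NDUFA4L2 were not found under these symbols. NDUFA4 is on the arrays under its newer symbol COXFA4, which passed the filter. That symbol falls outside the rule, so the gene is not counted among the members or in complex IV. Of the 13 subunits encoded in mitochondrial DNA, 7 were read by the arrays. Their symbols fall outside the rule for members, so they are described apart, and the counts of members are of the nuclear set. The subunits were steady between replicates: their median SD within groups was 0.11 log2 units, beside 0.18 over all genes tested, and the median SD between group means was 0.12 beside 0.2. They were also much brighter, with a median level of 11.6 beside 7.544 over all genes. Neither these SDs nor the shares of members with non-overlapping arrays below were compared with genes of like level.

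In RefSeq's promoter table (GRCh38.p14, 250 bases before to 50 after each gene's start), 66 of the 78 subunits were matched and were searched on both strands for the core letters of 4 factors. GCGCATGCG, a site for NRF1, the regulator of nuclear genes for mitochondria, was in 15.2% of subunit promoters, 2.1% of all 27305 promoters and 4.09% of those of the genes tested. CCGGAAGT, an ETS site as GABPA binds, was in 13.6%, 4.44% and 9.96%, AAGATGGCG, a site for YY1, in 10.6%, 1.85% and 4.68%, and TGACGTCA, the cyclic AMP response element that CREB binds, in 6.06%, 1.98% and 3.5%. At least 1 of the 4 was in 26 of 66 subunit promoters (39.4%), in 9.56% of all promoters and in 20.4% of those of the genes tested. These matches are letters in a window and are not measured binding.

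The 4 subunits with the cyclic AMP response element are of interest because both agonists act through cyclic AMP. They are shown with the element in capitals, each as 80 bases on the gene's strand, with NDUFB4 and SDHD, of complexes I and II, as 81 bases with the NRF1 letters in capitals. ATP5MC1 is at chr17:48892694-48892773 (plus strand), ATP5ME at chr4:674391-674470 (minus), NDUFA10 at chr2:240025347-240025426 (minus) and NDUFB2 at chr7:140696619-140696698 (plus). NDUFB4 is at chr3:120596141-120596221 and SDHD at chr11:112086727-112086807 (both plus).
ATP5MC1: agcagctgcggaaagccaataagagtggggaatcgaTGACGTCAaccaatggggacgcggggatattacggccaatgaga
ATP5ME: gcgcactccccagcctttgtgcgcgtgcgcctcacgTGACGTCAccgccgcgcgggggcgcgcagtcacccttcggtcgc
NDUFA10: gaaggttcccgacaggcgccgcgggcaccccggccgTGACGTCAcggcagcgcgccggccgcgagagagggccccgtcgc
NDUFB2: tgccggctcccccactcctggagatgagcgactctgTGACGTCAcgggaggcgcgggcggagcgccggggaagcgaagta
NDUFB4: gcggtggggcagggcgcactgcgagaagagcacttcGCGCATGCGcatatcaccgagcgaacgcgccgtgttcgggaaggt
SDHD: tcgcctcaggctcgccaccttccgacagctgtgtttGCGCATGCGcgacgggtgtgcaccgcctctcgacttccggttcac

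In every array of the 3 groups given salmeterol or a combination, the median of the 74 members lay below the untreated mean. The shift was -0.17 and -0.11 in the salmeterol arrays, -0.2 and -0.13 in the arrays of salmeterol with low dexamethasone, and -0.11 and -0.034 in those of CGS-21680 with low dexamethasone. CGS-21680 alone gave -0.019 and 0.033, on both sides of 0, and low dexamethasone gave -0.047 and -0.031. The high dose gave -0.016 in replicate 1 and -0.17 in replicate 2, so most of this group's shift came from 1 of its 2 arrays. All genes tested had shifts of -0.055 and -0.061 in the salmeterol arrays and of -0.021 to 0.039 in every other treated array.

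**Figure D1:**
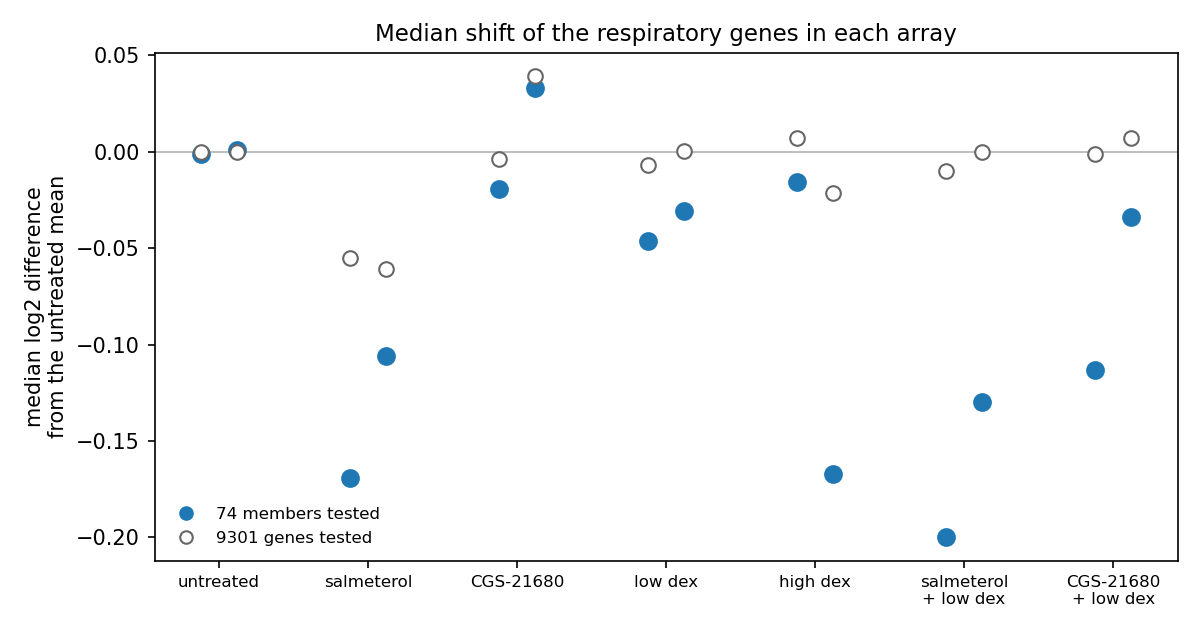
Median log2 difference from the untreated mean (y axis) in each of the 14 arrays (x axis, 2 arrays a group), for the 74 members tested (filled) and the 9301 genes tested (open). The members lie below 0 in both arrays of salmeterol, of each dexamethasone dose and of each combination, down to -0.2, and only the salmeterol arrays also have all genes below -0.05.

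The members that moved most are shown first by their own levels. NDUFV2, an iron-sulphur subunit of the NADH-oxidising arm of complex I (read by a single probe set), read 12.74 and 12.75 in untreated cells, 12.27 and 12.36 with salmeterol, 12.61 and 12.72 with CGS-21680, 12.15 and 12.21 with low dexamethasone and 12.1 and 11.96 with high dexamethasone. It read 11.4 and 11.2 with salmeterol and low dexamethasone, and 11.69 and 11.58 with CGS-21680 and low dexamethasone. The arrays of each combination lay below every array of its parts, and the salmeterol combination was the lowest of all groups, with no overlap. NDUFV2 was the only member called in each of the comparisons with untreated cells other than CGS-21680 alone. It fell by 0.43 ± 0.1 (SE) with salmeterol (limma adjusted p = 0.0371), by 0.56 with low dexamethasone (0.0134), by 0.72 with high dexamethasone (0.00261), by 1.11 with the CGS-21680 combination (0.000132) and by 1.44 with the salmeterol combination (1.2e-05). On the linear scale its intensity fell by 63.3% in the last of these. NDUFV2 also had the widest range of group means among the 74 members, 1.44 log2 units, with ATP5IF1 next at 0.68.

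**Figure D2:**
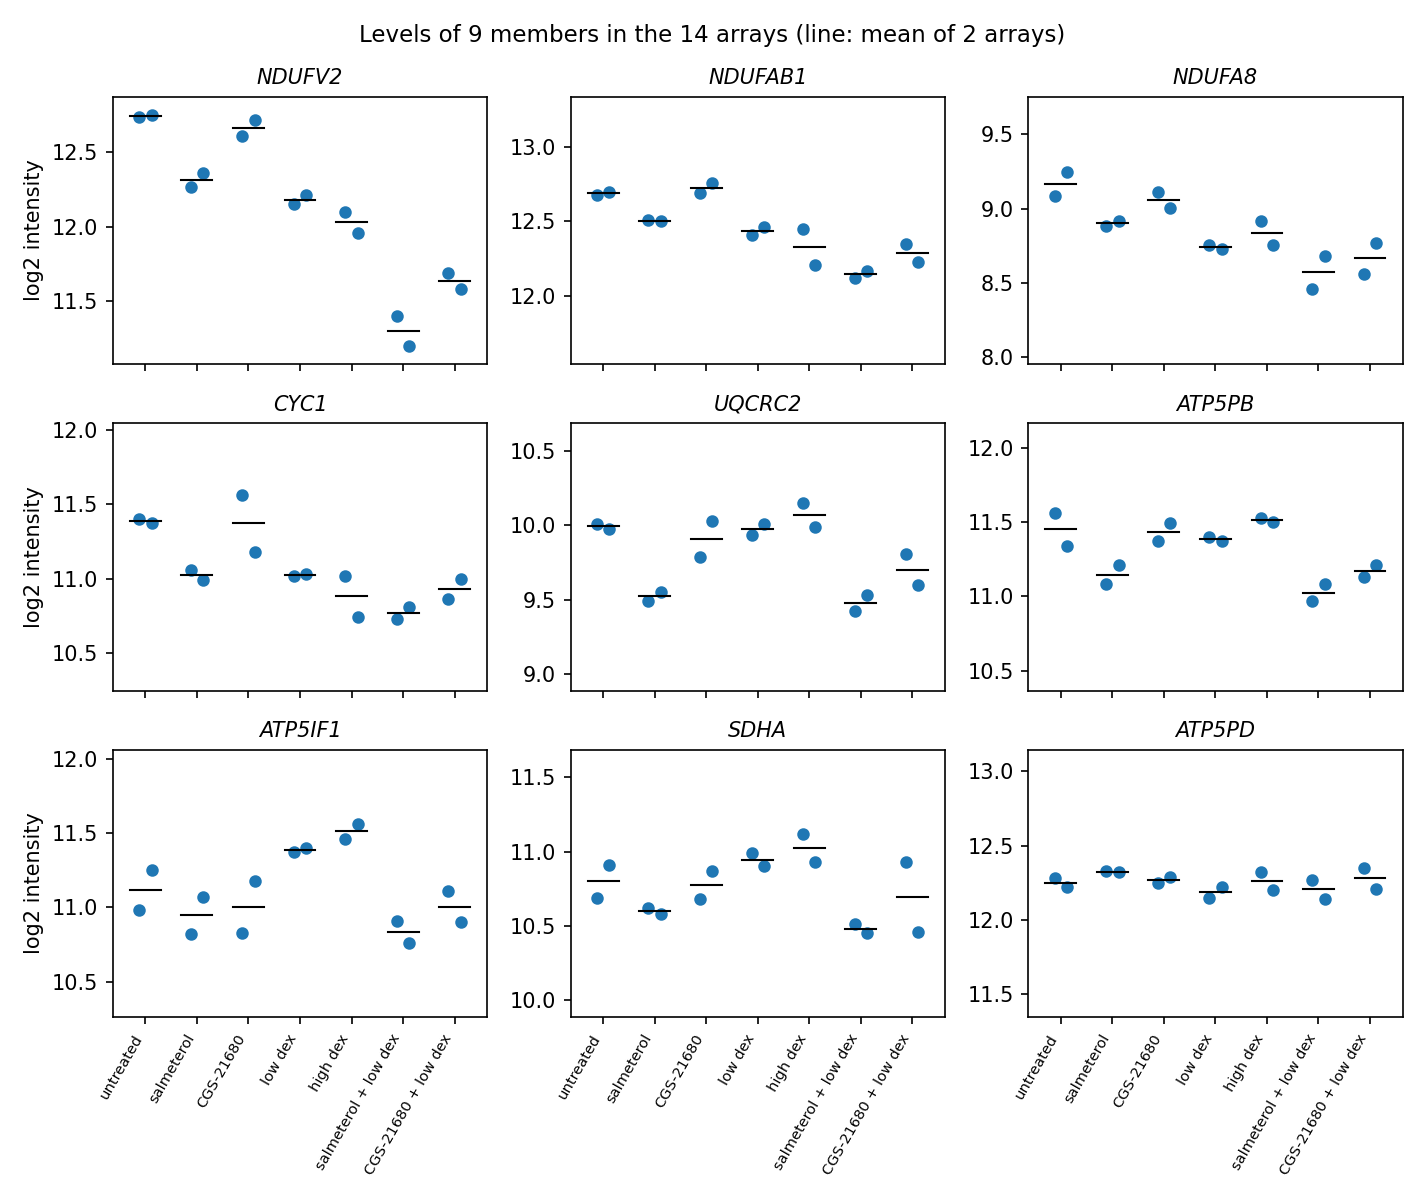
Log2 intensity (y axis, spanning the same range of log2 units in each panel) of 9 members in the 7 groups (x axis); points are arrays and lines the mean of 2 arrays. NDUFV2 falls from 12.74 and 12.75 in untreated cells to 11.4 and 11.2 with salmeterol and low dexamethasone, while ATP5PD stays between 12.14 and 12.35 in all 14 arrays.

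UQCRC2, a core protein of complex III, had another pattern. It read 10.01 and 9.975 in untreated cells, 9.935 and 10.01 with low dexamethasone and 10.15 and 9.99 with high dexamethasone, so the dexamethasone arrays overlapped or exceeded the untreated ones. With salmeterol it read 9.493 and 9.554, and with salmeterol and low dexamethasone 9.425 and 9.534. The 4 arrays given salmeterol were its lowest. UQCRC2 fell by 0.47 ± 0.11 (SE) with salmeterol alone (limma adjusted p = 0.0455), and by 0.49 when salmeterol was added to low dexamethasone (0.0189). Its arrays with CGS-21680, 9.788 and 10.03, overlapped the untreated ones, and with CGS-21680 and low dexamethasone it read 9.804 and 9.602.

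CYC1, the haem-carrying cytochrome c1 of complex III, read 11.4 and 11.37 in untreated cells, 11.06 and 10.99 with salmeterol, 11.56 and 11.18 with CGS-21680, 11.02 and 11.03 with low dexamethasone and 11.02 and 10.74 with high dexamethasone. The salmeterol combination gave 10.73 and 10.81 and the CGS-21680 combination 10.86 and 11. Both arrays lay below both untreated arrays in each group other than CGS-21680 alone. CYC1 was called in 1 of these comparisons, a fall by 0.62 ± 0.14 (SE) with the salmeterol combination (limma adjusted p = 0.00978). NDUFAB1, the mitochondrial acyl carrier protein that sits in complex I and also serves lipoate and iron-sulphur synthesis, read 12.68 and 12.7 in untreated cells and 12.12 and 12.17 with the salmeterol combination. Its dexamethasone arrays lay between, at 12.41 and 12.46 with the low dose and 12.45 and 12.21 with the high dose, and the 7 groups ran from 12.12 to 12.76. NDUFAB1 fell by 0.55 ± 0.097 (SE) with the salmeterol combination (limma adjusted p = 0.00301) and by 0.4 with the CGS-21680 combination (0.021).

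ATP5IF1, a small protein that binds ATP synthase and stops it from running in reverse, read 10.98 and 11.25 in untreated cells, 11.37 and 11.4 with low dexamethasone and 11.46 and 11.56 with high dexamethasone. Adding salmeterol to the low dose gave 10.91 and 10.76, and adding CGS-21680 gave 11.11 and 10.9. The 4 arrays with dexamethasone alone were the highest of the 14, and those of both combinations lay below them. The differences of low and high dexamethasone from untreated cells, 0.28 ± 0.15 and 0.4 ± 0.15 (SE), were not called (limma adjusted p = 0.423 and 0.158). When salmeterol was added to low dexamethasone ATP5IF1 fell by 0.56 ± 0.15 (0.0391), while against untreated cells the salmeterol combination differed by -0.28 and was not called (0.232). SDHA, the flavoprotein of complex II, read 10.99 and 10.9 with low and 11.12 and 10.93 with high dexamethasone, against 10.51 and 10.45 with salmeterol and low dexamethasone. It was called in 1 comparison, that of the salmeterol combination with high dexamethasone (-0.55 ± 0.15, limma adjusted p = 0.0446).

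Salmeterol alone was compared with untreated cells to see what the adrenergic agonist did by itself. NDUFV2 and UQCRC2 fell and no member rose, 2 of 74 called lower, where 4.24% of all genes were called lower and 1.73% higher. At an unadjusted p under 0.05 there were 9 members, 12.2% beside 20.3% of all genes. The members' median was -0.14 beside -0.063 over all genes, and 45 of 74 had both salmeterol arrays below both untreated ones, beside 33.6% of all genes. CYC1 (-0.36), ATP5MC1 (-0.37) and NDUFA7 (-0.39) had the largest differences among members not called, and NDUFB9, an accessory subunit of complex I, had the highest value, 0.28 ± 0.12 (SE, limma adjusted p = 0.222). The shift depends on the scaling: with each array centred on its median the members' median was -0.012 and that of all genes 0.063, and no member was called, nor after quantile normalization. Both calls were also lost without any 1 of the 2 untreated, 2 salmeterol or 2 low dexamethasone arrays, and that of UQCRC2 without either array of salmeterol with low dexamethasone as well.

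CGS-21680 alone left no member called, in limma at adjusted p under 0.05 or at an unadjusted p under 0.05 (8.43% of all genes), where 0.269% of all genes were called lower and 0.387% higher. The members' median was -0.0073 beside 0.014 over all genes. The differences ran from -0.16 for ATP5MC1, a c-ring subunit, to 0.24 for NDUFA5, an accessory subunit of complex I. Of the 74 members, 6 (8.11%) had both arrays above and 4 (5.41%) had both arrays below both untreated arrays, beside 18.9% and 13.8% of all genes. Set directly against salmeterol, CGS-21680 gave higher values for 63 of 74 members (85.1%), with a median of 0.11, where 68.2% of all genes were higher with a median of 0.091. None of the members was called (0.495% of all genes, either way). At an unadjusted p under 0.05 there were 8 (10.8%, beside 12.5% of all genes), led by NDUFV2 (0.35 ± 0.1 SE, limma adjusted p = 0.175) and UQCRC2 (0.39 ± 0.11, 0.189), so the agonists were not shown to differ for any member.

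Low dexamethasone lowered NDUFV2 alone, 1 of 74, where 2.18% of all genes were called lower and 2.47% higher. Over the members the median was -0.033, beside 0 over all genes, and 6 members had an unadjusted p under 0.05 (8.11%, beside 17.5%). The highest difference was that of NDUFA10, an accessory subunit of complex I, which read 8.567 and 8.88 in untreated cells and 9.079 and 9.208 with the low dose (0.42 ± 0.14 SE, limma adjusted p = 0.145). The arrays did not overlap, and the gene was not called. NDUFV2 lost its call without either untreated or either low dexamethasone array. High dexamethasone lowered NDUFV2 and NDUFAB1, 2 of 74, beside 4.21% of all genes called lower and 4.37% higher, with 13 members at an unadjusted p under 0.05 (17.6%, beside 22.5% of all genes). NDUFAB1 stood at the threshold (-0.37 ± 0.097 SE, limma adjusted p = 0.0497). It kept its call in 4 of the 22 alternatives run for it, and lost it without either CGS-21680 array, among others. CYC1 (-0.51, limma adjusted p = 0.0529), UQCRQ (-0.45) and UQCR11 (-0.43), all of complex III, had larger differences than NDUFAB1 and were not called. So had, by a small margin, NDUFA13 (-0.383) of complex I and COX7A2 (-0.37) of complex IV, which were not called either.

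The result for the high dose turned on single arrays. The counts with an array left out are given without the share of all genes called in the same fit. Without replicate 1 of high dexamethasone 9 members were called, and 1 was called without replicate 2 or without any 1 of 10 other arrays: each untreated, salmeterol, low dexamethasone and combination array. The members' median of -0.083 became -0.17 without replicate 1 and -0.016 without replicate 2. Replicate 2 also had the lowest difference between the GAPDH probe sets at the 3' and 5' end, 0.735 log2 units, of a range up to 1.31 over the 14 arrays. For the ACTB probe sets it did not stand out, at 1.65 of a range from 1.25 to 2.23. The part of RNA quality in this result was not tested. NDUFS7, a core subunit of complex I, read 9.721 in that array and 10.34 to 10.78 in the other 13. No member was called between the high and the low dose, nor any other gene (0% either way), and no member had an unadjusted p under 0.05 (3.53% of all genes).

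Salmeterol added to low dexamethasone was set against the low dose alone, the comparison that asks what the agonist adds. In complex I, NDUFV2 fell by 0.88 ± 0.1 (SE, limma adjusted p = 0.000464), and the accessory subunits NDUFA7 (by 0.41) and NDUFB3 (by 0.37) fell too. In complex III UQCRC2 fell by 0.49. In complex V ATP5IF1 fell by 0.56 and ATP5PB, the b subunit of the peripheral stalk that holds the F1 head still, by 0.36. These 6 of 74 members called lower stand beside 8.13% of all genes, and 0 were called higher beside 6.29%, so the count is near the background. The members' median was -0.12 beside -0.0033 over all genes, with 18 members at an unadjusted p under 0.05 (24.3%, beside 27% of all genes), and 48 of 74 members had both arrays below both arrays of the low dose, beside 29.1% of all genes.

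Within complex V the parts differed in how far they moved in this comparison. The 4 peripheral stalk subunits had a median of -0.34, the 3 c-ring subunits -0.41, the 4 small membrane subunits -0.21 and the 5 subunits of the F1 head and central stalk -0.012. ATP5PB read 11.4 and 11.37 with the low dose and 10.97 and 11.08 with salmeterol added, and ATP5PO, the stalk subunit that sits on top of the head, 13.16 and 13.41 against 12.94 and 12.91. ATP5PD, of the same stalk, read 12.15 and 12.22 against 12.27 and 12.14, which overlapped. The catalytic beta subunit ATP5F1B had a difference of 0.1 and the alpha subunit ATP5F1A one of -0.31, and neither was called. ATP5PB was the only one of these 16 called, and the differences between the parts were not tested. Of the 6 calls in this comparison, that of NDUFV2 alone was left without either low dexamethasone array or without replicate 1 of the combination. Without replicate 2 of the combination, either salmeterol array or the filter on low values 3 of the 6 were left. Centring the arrays left NDUFV2 and UQCRC2 lower with NDUFA6, an accessory subunit of complex I, called higher. That direction of NDUFA6 (0.32) came with values of 11.53 and 11.63 for the low dose and 11.83 and 11.97 with salmeterol added, and it was also called with trend and robust moderation but not in the fit reported here.

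CGS-21680 added to low dexamethasone lowered NDUFV2, by 0.55 ± 0.1 (SE, limma adjusted p = 0.0215), and no other member, 1 of 74 beside 1.64% of all genes called lower and 1.75% higher. The median over members was -0.053, beside 0.0019, and 4 members had an unadjusted p under 0.05 (5.41%, beside 15.1%). NDUFV2 lost this call without any 1 of the 4 arrays compared. Of the other subunits ATP5IF1 had the largest difference, -0.39, and the non-coding NDUFV1-DT, whose arrays overlapped, had 0.395.

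The salmeterol combination against untreated cells gave the most calls. The comparisons with untreated cells share those 2 arrays, so their values are given side by side and are not independent. Of 74 members 13 fell and none rose, 17.6%, beside 13.7% of all genes called lower and 10.9% higher, and 19 had an unadjusted p under 0.05 (25.7%, beside 35.1%). The members' median was -0.16, a change of -10.7% on the linear scale, beside -0.00089 over all genes, and 46 of 74 had both arrays below both untreated arrays, beside 31.6% of all genes. The 13 are in 4 complexes: 8 of 33 in complex I, 0 of 3 in complex II, 2 of 7 in complex III, 1 of 11 in complex IV and 2 of 17 in complex V.

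In complex I, the entry point for NADH, the core subunit NDUFV2 fell by 1.44 and 7 accessory subunits fell: NDUFA7 and NDUFA8 by 0.59 each, NDUFAB1 by 0.55, NDUFS4 by 0.43, NDUFB3 by 0.38, NDUFV3 by 0.37 and NDUFB4 by 0.32. NDUFA8, which lies on the intermembrane side, read 9.087 and 9.245 in untreated cells and 8.462 and 8.681 with the combination. NDUFA7 read 10.81 and 10.8 against 10.23 and 10.2. NDUFS4, whose loss is a known cause of Leigh syndrome, read 9.179 and 9.094 against 8.677 and 8.743. In all of these genes the groups did not overlap. The 4 other core subunits tested were not called, with NDUFS1, the largest subunit and an electron carrier, at -0.23 ± 0.1 (SE, limma adjusted p = 0.144), NDUFV1, the FMN-binding partner of NDUFV2, at 0.076 ± 0.17 (0.827), NDUFS3 at 0.062 and NDUFS7 at 0.13. NDUFV2 thus stood apart from the other core subunits in this comparison, as it did from all other members.

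**Figure D3:**
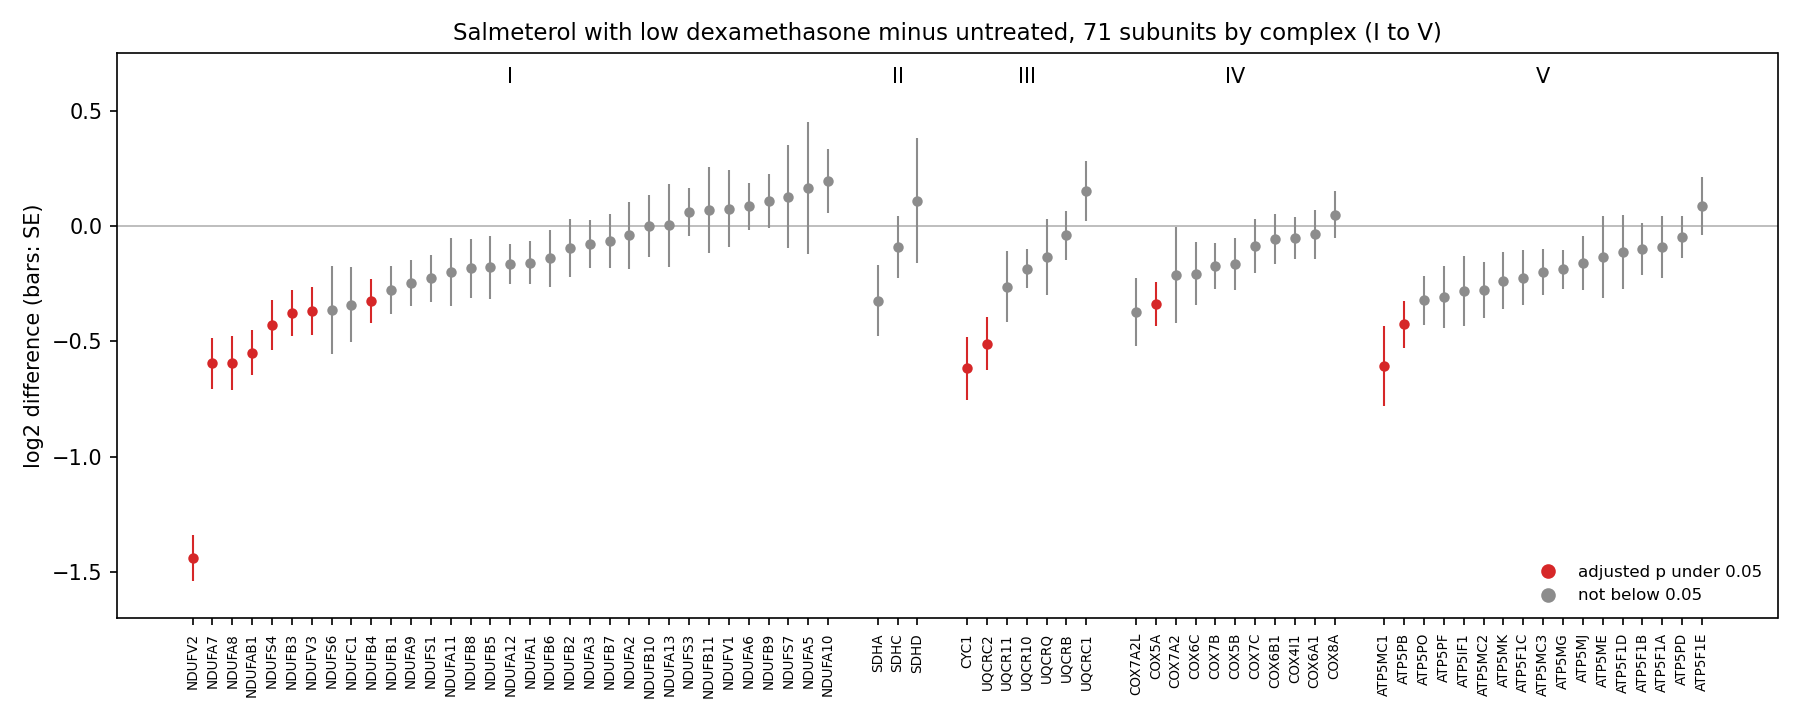
Log2 difference of salmeterol with low dexamethasone from untreated cells (y axis) for the 71 subunits tested (x axis), by complex I to V and sorted within each; points are estimates over 2 arrays a group, bars their SE, and red points the 13 with an adjusted p under 0.05. NDUFV2 stands apart at -1.44, all other subunits lie between -0.62 and 0.2, and complex II has no red point.

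In complex III CYC1 fell by 0.62 and UQCRC2 by 0.51. The other core protein, UQCRC1, differed by 0.15 ± 0.13 (SE) and was not called (limma adjusted p = 0.475). In complex IV, cytochrome c oxidase, COX5A fell by 0.34 (0.0295), while COX4I1, the subunit through which ATP is known to inhibit the enzyme, differed by -0.052 and the supercomplex factor COX7A2L by -0.37 ± 0.15 (0.1). The COX5A value came from 1 of 2 probe sets, and the dimmer one had 0.19 in place of -0.34. In complex V ATP5MC1, 1 of 3 genes for the same c-ring protein, fell by 0.61 ± 0.17 (0.0306) and ATP5PB by 0.43 (0.0142). The other c-ring genes, ATP5MC2 (-0.28) and ATP5MC3 (-0.2), were not called. In complex II SDHA differed by -0.32, SDHC by -0.091 and SDHD by 0.11.

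The count of 13 became 4 without replicate 1 of the salmeterol combination, 7 without untreated replicate 1 and 8 without untreated replicate 2 or replicate 2 of the combination. It was 6 where only the 4 arrays compared were fitted. NDUFV2, NDUFA7 and NDUFAB1 were called in all 22 alternatives run for them, and NDUFA8 in 21. ATP5MC1 read 10.04 and 10.55 in the untreated arrays, and its difference became -0.35 without untreated replicate 2. NDUFV3 was also read by a dimmer probe set, which gave 0.11 in place of -0.37.

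The CGS-21680 combination lowered 4 of 74 members against untreated cells: NDUFV2 by 1.11 ± 0.1 (SE, limma adjusted p = 0.000132), NDUFA8 by 0.5 ± 0.12 (0.0183), NDUFAB1 by 0.4 ± 0.097 (0.021) and NDUFV3 by 0.39 ± 0.1 (0.0294). All 4 are in complex I and all 4 also fell with the salmeterol combination, with which this comparison shares the untreated arrays. None rose, beside 8.13% of all genes called lower and 7.66% higher, and 11 had an unadjusted p under 0.05 (14.9%, beside 28.2%). Their median was -0.079, beside 0.0027 over all genes, and 30 of 74 had both arrays below both untreated arrays, beside 25.3% of all genes. Set against the salmeterol combination, the CGS-21680 combination gave higher values for 59 of 74 members (79.7%, beside 54.8% of all genes). The median was 0.078, beside 0.02, and 28 members had both arrays above both of the salmeterol combination (37.8%, beside 21.6%). No member was called between the 2 combinations (1.2% of all genes either way, 3 members at an unadjusted p under 0.05 beside 10.1% of all genes). NDUFV2 was 0.33 ± 0.1 higher in the CGS-21680 combination (limma adjusted p = 0.21). The count was 1 without untreated replicate 2 and 2 without untreated replicate 1 or replicate 1 of the combination.

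Low dexamethasone added to an agonist lowered the same pair of members with either agonist. Against salmeterol alone NDUFV2 fell by 1.01 and NDUFAB1 by 0.36, 2 of 74 beside 6.52% of all genes called lower, with 6 members at an unadjusted p under 0.05 (8.11%, beside 28.9%). Against CGS-21680 alone NDUFV2 fell by 1.03 and NDUFAB1 by 0.44, 2 of 74 beside 7.74%, with 8 members at an unadjusted p under 0.05 (10.8%, beside 26.1%). The call of NDUFAB1 was lost without either array of salmeterol or of its combination in the one, and without replicate 2 of CGS-21680 or of its combination in the other. An interaction term asks whether the drugs together did more or less than the sum of their separate differences. No member was called for salmeterol (1.61% of all genes either way, 2 members at an unadjusted p under 0.05 beside 11.8%) or for CGS-21680 (0.151%, 1 member beside 6.35%). NDUFV2 had an interaction of -0.45 ± 0.14 (SE) with salmeterol (limma adjusted p = 0.219) and of -0.47 ± 0.14 with CGS-21680 (0.496), so its fall in the combinations was not shown to exceed the sum.

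Against high dexamethasone the salmeterol combination lowered 8 of 74 members, 10.8%, beside 8.3% of all genes called lower, and 22 had an unadjusted p under 0.05 (29.7%, beside 27.7%). They were NDUFV2 (by 0.73), ATP5IF1 (by 0.68), UQCRC2 (by 0.59), SDHA (by 0.55), ATP5PB (by 0.49), ATP5PO (by 0.41), NDUFA7 (by 0.39) and NDUFA1 (by 0.35). No member was called for the CGS-21680 combination against high dexamethasone (1.43% of all genes called lower, 13 members at an unadjusted p under 0.05, 17.6% beside 16.8%), with NDUFV2 nearest (-0.39 ± 0.1 SE, limma adjusted p = 0.0747).

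The 7 subunits of mitochondrial DNA are named on the arrays by the older short symbols ND2, ND4 and ND6 (complex I), COX1, COX2 and COX3 (the catalytic core of complex IV) and ATP6 (the proton channel of complex V). Over the 14 arrays ND2 read 15.49 to 16, ND4 16 to 16.44, COX1 15.87 to 16.42, COX2 16.16 to 16.46 and ATP6 15.71 to 16.18. COX3 read 8.802 to 9.604. ND6, whose RNA is made from the other strand of mitochondrial DNA, read 10.76 to 12.47, with 12.47 and 11.41 in the untreated arrays alone. No gene of the 7 was called in any of the 17 comparisons, and none had an unadjusted p under 0.05. With salmeterol and low dexamethasone their median difference from untreated cells was 0.0099, beside -0.16 for the members, and their values ran from -0.17 ± 0.48 (SE) for ND6 to 0.079 ± 0.16 for ATP6. With high dexamethasone ND2, COX1, COX2 and ATP6 had both arrays above both untreated arrays, by 0.06 (COX2) to 0.21 (ND2). The same was so for 23.3% of all genes, and the arrays of ND4, COX3 and ND6 overlapped. The difference between these genes and the nuclear set was not tested. The median level of the 7 was 15.94, above every value of the members. Whether probe sets this bright could show a small fall was not tested either.

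The other genes of the pathway were read from fixed lists in the salmeterol combination against untreated cells. Of all genes, 13.7% were called lower, 10.9% were called higher and 35.1% had an unadjusted p under 0.05 in this comparison. Of 50 assembly factors tested, which build the complexes and are not part of them, 19 fell and 0 rose, with a median of -0.44, and 27 had an unadjusted p under 0.05 (54%). NDUFAF4 fell by 1.04 ± 0.11 (SE, limma adjusted p = 0.000171) and NDUFAF2 by 1.1 ± 0.13 (0.00026), both assembly factors of complex I. Of 22 genes of mitochondrial protein import 13 fell and 1 rose, with a median of -0.52, among them GRPEL1, a cofactor of the matrix chaperone (by 1.19), and TOMM70, an outer membrane receptor (by 0.68). Of 20 electron carrier and nucleotide exchange genes 7 fell and 0 rose, with a median of -0.15. CYCS, cytochrome c itself, fell by 1.61 ± 0.12 (1.45e-05), from a mean of 13.69 to one of 12.08, and the ATP/ADP carrier SLC25A4 by 0.42. Of 19 regulators of mitochondrial transcription and biogenesis 6 fell and 1 rose, with a median of -0.16. TFB2M, a mitochondrial transcription factor, fell by 1.13 and GABPB1, the partner of the ETS factor GABPA, rose by 1.01. Of 16 genes of the tricarboxylic acid cycle and pyruvate dehydrogenase 1 fell and 1 rose, with a median of -0.0053: MDH2, malate dehydrogenase, fell by 0.48 and OGDH, of the oxoglutarate dehydrogenase complex, rose by 0.58.

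**Figure D4:**
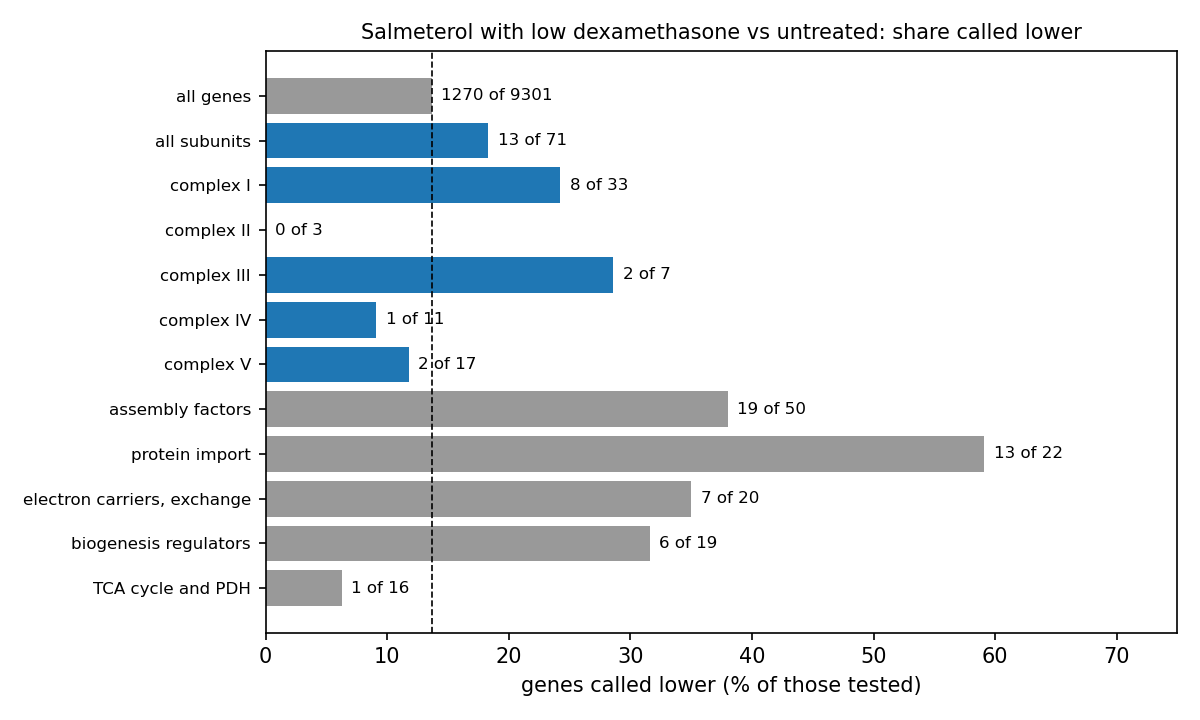
Share of genes called lower with salmeterol and low dexamethasone against untreated cells (x axis, percent of those tested) in each list (y axis), with the numbers beside each bar and the share of all genes, 13.7%, as a dashed line. The subunits, 13 of 71, lie near that line. Assembly factors (19 of 50) and import genes (13 of 22) lie above it. Electron carriers, biogenesis regulators, complex I (8 of 33) and complex III (2 of 7) also lie above it.

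The difference between these lists and the subunits was not tested. Of 9 plasma cell markers 4 fell in the same comparison and 0 rose, with a median of -0.5: IRF4, a transcription factor that myeloma cells depend on (-3.18), POU2AF1 (-2.32), TNFRSF17 (-1.57) and SDC1 (-1.27). Over the 14 arrays the levels of the 9 ran from 5.747 (CD38) to 15.46 (JCHAIN). Their part in the members' shift was not tested.

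The promoter motifs were set against these results. Among the subunits that fell with the salmeterol combination 5 of 12 promoters held at least 1 (41.7%), and among subunits tested and not called 21 of 50 (42%). The single motifs were not all alike. The ETS letters were in 0 of 12 and 9 of 50 (18%), and the NRF1 letters in 2 of 12 and 8 of 50 (16%). The YY1 letters were in 2 of 12 and 5 of 50 (10%), and the cyclic AMP response element in 1 of 12 and 3 of 50 (6%). These differences were not tested. The cyclic AMP response element of the promoters printed above starts 57 bases before the start of ATP5MC1, 158 before that of ATP5ME, 48 before that of NDUFA10 and 53 before that of NDUFB2. With salmeterol alone ATP5MC1 differed from untreated cells by -0.37, ATP5ME by -0.056, NDUFA10 by -0.024 and NDUFB2 by 0.063, and none was called. With salmeterol and low dexamethasone they differed by -0.61, -0.14, 0.2 and -0.096, and ATP5MC1 was called. ATP5MC1 lay near the low end of the members in both comparisons, and ATP5ME, NDUFA10 and NDUFB2 lay above their median in both. NDUFB4, which has the NRF1 letters, fell with the salmeterol combination (by 0.32), and SDHD, which has them too, was not called (0.11).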

How the data were processed

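Per the labels' protocols, total RNA of 14 cultures was made into biotin-labelled cRNA and hybridised to Affymetrix arrays, 1 array a sample. The authors deposited 1 intensity per probe set, summarised with GCRMA per the submitters' processing notes with no version given. The values are on a linear scale and stop at 4.879, so log2 was taken and 2.286 is the lowest log2 value; GCRMA raises dim probe sets to that floor, where differences vanish. Precision is limited by the number of arrays, 2 a group.

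Of 54675 probe sets 41097 have 1 gene symbol in the platform annotation, 1801 have several and 11777 are not listed there. Per gene the probe set with the highest mean was used among those with a log2 value of at least 4 in at least 2 arrays, which left 9301 genes. limma 3.58.1 (R 4.3.3) fitted 7 group means to all 14 arrays (7 residual and 2.3 prior degrees of freedom), with 17 comparisons, Benjamini-Hochberg adjustment over all genes in each and a threshold of 0.05. The fit was tested on simulated data of 9301 genes. Of 100 genes changed by 1 log2 unit 71 were recovered for the salmeterol combination against untreated cells, and 96 of 100 changed by 2 units. There were 12 false calls among the unchanged genes. The simulation changed 200 of the 9301 genes, while 24.6% of all genes were called in this comparison of the data. Adjusted p-values depend on the share of changed genes, so recovery in the data may differ. Changes under 1 log2 unit, the size of all member differences but that of NDUFV2 in this comparison, were not simulated.

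Named members are the largest calls of each comparison, the highest and lowest of each complex, and a fixed set of catalytic, regulatory and isoform genes. A few others are named after their values were seen (NDUFA6 and the members of the motif, probe set and part-of-complex descriptions). Smaller calls are given too, but were not followed singly through the alternatives. For the salmeterol combination these are NDUFB4 and NDUFV3 against untreated cells, and SDHA, ATP5PB, ATP5PO, NDUFA7 and NDUFA1 against high dexamethasone. The members and the 12 lists (the mitochondrial DNA subunits, assembly factors, tricarboxylic acid cycle, biogenesis regulators, import, electron carriers, 4 sets of cell type markers and 2 treatment checks) were chosen with earlier results of these data known. Alternatives were other scaling, filters, probe set choice, moderation, a replicate block, fits of only the groups compared and leaving out each array. Same-numbered arrays did not deviate together in every pair of groups (median correlation 0.105, from -0.173 to 0.255), so the numbers were not taken to pair samples. Promoters came from RefSeq's table (GRCh38.p14). No genome build is given for the arrays in the sources used here, so no probe set positions are printed; promoter positions are those of that table.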

Additional observations from a re-analysis of the deposited data

How the results depend on the processing

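None of the 34 called values of named members changed sign under the alternatives. Of 142 values not called 5 changed sign with centred arrays, 6 with quantile normalization and 7 with the mean of probe sets, and the salmeterol median of all genes turned from -0.063 to 0.063 with centring. With each array centred on its median, 0 members were called for salmeterol, 1 for high dexamethasone and 3 for salmeterol added to low dexamethasone, and the salmeterol median was -0.012. Quantile normalization called 0 for salmeterol. Without a filter 1 was called for salmeterol and 1 for high dexamethasone, whose median was -0.021 over 83 genes; for salmeterol added to low dexamethasone it called 4, without ATP5IF1, ATP5PB and NDUFA7. Trend and robust moderation called 11 for salmeterol added to low dexamethasone. The replicate block called 1 for salmeterol, 8 for salmeterol added to low dexamethasone and 15 for the salmeterol combination against untreated cells, and for the other main comparisons it left the count within 1.5 times; its numbers do not pair the samples. Fits of only the groups compared, with 2 residual degrees of freedom, called 0 for salmeterol, 0 for each dexamethasone dose, 1 for salmeterol and 0 for CGS-21680 added to low dexamethasone, and 6 and 1 for the salmeterol and CGS-21680 combinations against untreated cells; these have fewer samples, and for the other changes the cause was not tested.

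Leaving out each array in turn gave 0 to 2 calls for salmeterol, 0 to 0 for CGS-21680, 0 to 1 for low and 1 to 9 for high dexamethasone, 1 to 6 for salmeterol and 0 to 1 for CGS-21680 added to low dexamethasone, and 4 to 14 and 1 to 5 for the combinations against untreated cells. The members' median then ran from -0.17 to -0.016 for high dexamethasone, from -0.17 to -0.089 for salmeterol and from -0.2 to -0.13 for the salmeterol combination. A group left with 1 array is assumed to vary like the others. The share of all genes called in each alternative fit is not given here. Whether members or all genes gained or lost calls therefore cannot be read from these counts. Of 34 calls of named members 9 held in fits of only the groups compared, 26 with centred arrays and 27 with no filter, and 31 or more under each of the other settings that keep all arrays.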

Other observations

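Subunits read by several probe sets differed in how well those sets matched. The 3 probe sets of ATP5IF1 gave -0.56, -0.48 and -0.6 for salmeterol added to low dexamethasone, and the 2 of UQCRC2 gave -0.49 and -0.29, so both genes kept their direction. The 3 brighter probe sets of COX5B lay between -0.17 and -0.04 for salmeterol with low dexamethasone against untreated cells, and its dimmest, at a mean of 10.13, gave -0.46. For SDHC 5 probe sets ran from -0.091 to 0.12 in that comparison.

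The subunits that varied least over the groups were ATP5PD, a peripheral stalk subunit, with a range of group means of 0.14 log2 units, NDUFB2 with 0.16 and NDUFA12 with 0.16, both accessory subunits of complex I. SDHD, a membrane anchor of complex II, read 9.413 and 10.39 in the arrays of CGS-21680 with low dexamethasone, the lowest and the highest of its 14 values.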
